A study of Rattus norvegicus with 19 samples.

Results

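Calca, Calcb, Tac1 and Kit, which are genes of the neuropeptides and of a receptor of peptidergic nociceptors, were followed in the T11 dorsal root ganglion of the rat. Every probe set with exactly 1 gene symbol in the platform annotation, that symbol being Calca, Calcb, Tac1 or Kit, was taken. This gave 6 of the 31042 probe sets tested, for 4 of the 14217 genes that a probe set of 1 symbol measured. Calca had 3 probe sets, and Calcb, Tac1 and Kit had 1 each, so that the agreement of several probe sets could be examined for Calca but not for Tac1.

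All animals were adult female Sprague-Dawley rats of 260 to 310 g, and no allele or transgene was involved. In the operated rats the dorsal and lateral cutaneous nerves of T9, T10, T12 and T13 were cut on 1 side, the skin nerves of T11 were left intact, and the T11 ganglion was taken 7 days (7 rats) or 14 days (7 rats) later. The 5 naive rats had no operation and no sham group was included, so that effects of the surgery and of the loss of neighbouring innervation cannot be told apart. Each Affymetrix rat genome array carried RNA of 1 ganglion of 1 rat, 100 ng of it amplified in 2 rounds, and nothing was pooled. Values are the authors' RMA log2 signals, in which a difference of 1 is a doubling. A spared dermatome of this kind is a model in which intact nociceptors extend collateral branches into the neighbouring denervated skin.

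Peptidergic nociceptors are small-diameter pain-sensing neurons that store neuropeptides in dense core vesicles and release them both in the spinal cord and in the skin. Calca yields calcitonin or alpha-CGRP by alternative splicing, and sensory neurons make mostly the latter. Calcb encodes beta-CGRP, a near-identical peptide from a neighbouring gene, and CGRP is a potent vasodilator. Tac1 encodes the precursor of substance P and neurokinin A. Kit is the receptor tyrosine kinase for stem cell factor, the product of Kitlg, and is carried by part of the peptidergic neurons as well as by mast cells and melanocytes. Nerve growth factor is known to raise CGRP and substance P in sensory neurons, and cutting their own axons is known to lower both.

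Markers of all sensory neurons were abundant, as a ganglion sample requires. The 9 markers fixed for this check had a mean log2 signal of 11.66 to 11.99 on the 19 arrays, against a median of 6.72 over all probe sets. Skeletal muscle transcripts stood high on 1 array of each group, where the mean of 12 muscle genes was 9.86 (naive replicate 1), 9.54 (day 7 replicate 7) and 8.14 (day 14 replicate 2). The mean signal of 3-prime over 5-prime control probe sets, a measure of RNA integrity and amplification, was 3.42 ± 0.18 (SD, n = 5) in naive, 3.27 ± 0.08 (n = 7) on day 7 and 3.26 ± 0.07 (n = 7) on day 14. The highest value, 3.69, was that of naive replicate 4. Animal codes had the prefix AJ or AK in naive rats (2 and 3 rats) and on day 7 (5 and 2 rats), and AI or AJ on day 14 (5 and 2 rats). The labels do not say what these prefixes mean.

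The promoters of Calca and Tac1 are shown here because the middle-signal Calca probe set, 1 of 3, varied with Tac1 from rat to rat (given with the results). The stretches are the 250 bases before the annotated start in RefSeq (GRCr8), for Calca chr1:178317530-178317779 on the minus strand and for Tac1 chr4:36645333-36645582 on the plus strand, and capitals mark matches to searched motifs.
Calca: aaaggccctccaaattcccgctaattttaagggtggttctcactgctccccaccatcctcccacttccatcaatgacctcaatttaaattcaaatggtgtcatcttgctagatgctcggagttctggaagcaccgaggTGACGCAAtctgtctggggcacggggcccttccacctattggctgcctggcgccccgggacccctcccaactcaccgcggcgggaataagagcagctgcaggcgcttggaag
Tac1: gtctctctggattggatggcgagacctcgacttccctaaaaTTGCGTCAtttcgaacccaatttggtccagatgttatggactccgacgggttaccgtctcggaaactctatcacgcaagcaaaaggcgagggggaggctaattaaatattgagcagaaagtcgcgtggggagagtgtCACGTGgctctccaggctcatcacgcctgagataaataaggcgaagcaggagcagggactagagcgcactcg
Of 4 motifs searched on both strands, namely TGACGTCA, TGACGCAA, CACGTG and TGANTCA, the Calca stretch held TGACGCAA at position -112 from the start. The Tac1 stretch held the same motif on the other strand at position -209, written TTGCGTCA there, and CACGTG at position -72. TGACGCAA was added to the search after the sequences had been seen, and none of the 4 motifs overlaps another in these stretches. Among 33469 promoter windows of 300 bases, which reach 50 bases past the start, 0.496% held TGACGCAA, 6.42% CACGTG, 1.83% TGACGTCA and 7.33% TGANTCA. The window of Kit held none of the 4, and Calcb had no entry in the promoter table. No binding was measured, and a match is a run of letters only.

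The signal of the peptide genes was high and that of Kit was low. Calca's brightest probe set (1370775_a_at) had a mean log2 signal of 12.56 over the 19 arrays, higher than 99.03% of all probe sets, and Calcb's (1370562_at) had 12.34, higher than 98.55%. Tac1's (1369309_a_at) had 10.55, higher than 90.2%, and Kit's (1369822_at) had 4.75, higher than only 14.35%. These signals depend on the probes as well as on the transcripts and give no order of abundance between genes. The other Calca probe sets had means of 10.15 (1369116_a_at, called the middle one below) and 5.96 (1369117_at, the dimmest). The annotation ties the middle and the dimmest probe sets to the same transcript record and the brightest to another mRNA record. Which splice product each of them detects was not tested.

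**Figure D1:**
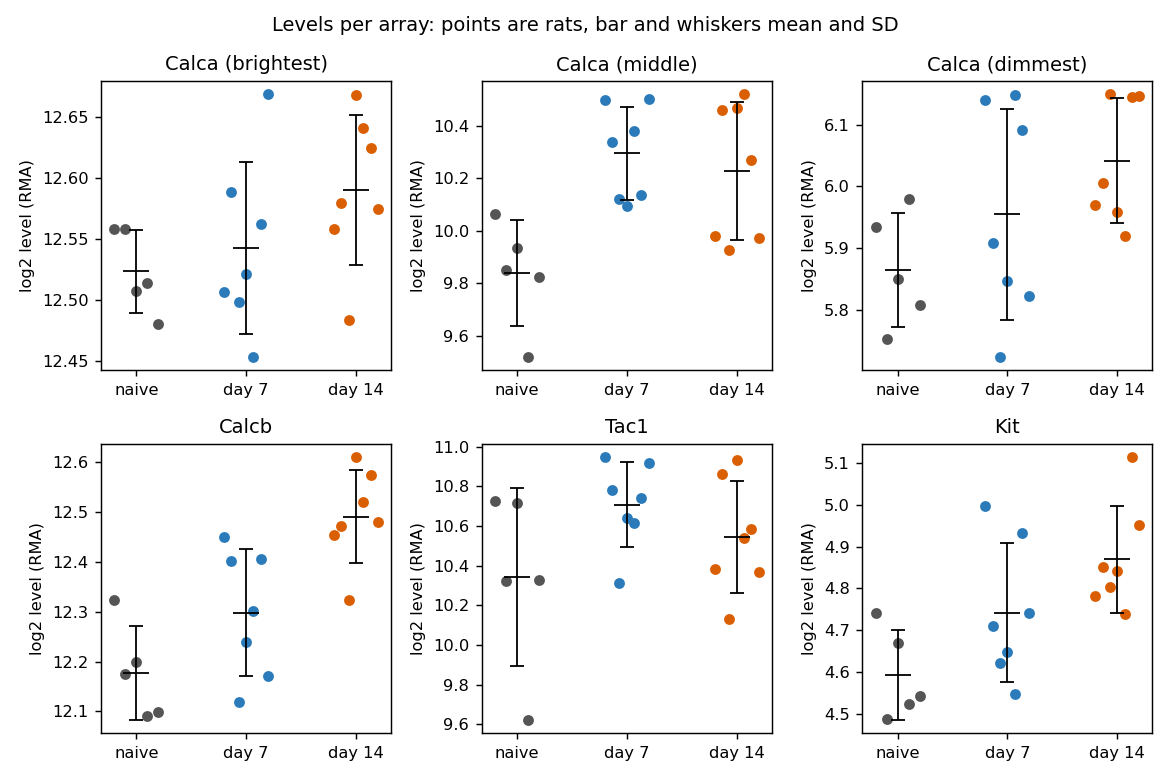
Log2 signal (vertical axis) of the 6 probe sets on each array, 1 panel per probe set with its own scale. Points are rats of the naive (n = 5), day 7 (n = 7) and day 14 (n = 7) groups, and bars show the mean ± SD. The middle Calca probe set is higher on all 7 day 7 arrays than on any naive array, and the Calcb group means run from 12.18 over 12.30 to 12.49.

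None of the 6 probe sets changed by the test used here, which was limma's moderated test with Benjamini-Hochberg adjustment over all 31042 probe sets and a threshold of 0.05. On day 7 against naive 0 of 6 passed, with a background of 0% of all probe sets, and 2 of 6 had an unadjusted p under 0.05 against a background of 8.7%. On day 14 against naive 0 of 6 passed against a background of 0.139%, and 4 of 6 had an unadjusted p under 0.05 against 19.7%. Between day 14 and day 7 the counts were 0 of 6 against 0% and 1 of 6 against 11.3%. The differences from naive were positive for 6 of 6 probe sets on both days, where 53% and 56.4% of all probe sets were positive, with medians over the 6 of 0.14 and 0.24. Naive arrays are shared by both comparisons and 3 of the 6 probe sets measure 1 gene, so these signs are not separate observations. In a whole ganglion, more cells of a type and more RNA per cell cannot be told apart.

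The brightest Calca probe set was the steadiest of the members. Its naive arrays read 12.56, 12.56, 12.51, 12.51 and 12.48, its day 7 arrays 12.51, 12.59, 12.50, 12.52, 12.45, 12.56 and 12.67, and its day 14 arrays 12.56, 12.58, 12.48, 12.67, 12.64, 12.62 and 12.57. The groups overlapped, with 3 of 7 day 7 arrays and 5 of 7 day 14 arrays above every naive array. The highest day 7 value was that of the array high in muscle transcripts. The log2 difference from naive was 0.02 ± 0.05 (SE; 95% interval -0.08 to 0.12; limma adjusted p = 0.937) on day 7 and 0.07 ± 0.05 (-0.03 to 0.16; adjusted p = 0.431) on day 14. Against the muscle mean this probe set gave r = 0.51 over 19 arrays (adjusted permutation p = 0.0954), and 0.21 without 2 arrays. Its within-group SD of 0.0597 was smaller than that of all but 1.15% of the probe sets. The highest value of any probe set on any array was 14.02.

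The middle Calca probe set was higher on every day 7 array than on every naive array, without passing the adjusted test. Naive arrays read 10.06, 9.85, 9.94, 9.52 and 9.82. Day 7 arrays read 10.50, 10.34, 10.12, 10.10, 10.38, 10.14 and 10.50, and day 14 arrays 9.98, 10.46, 9.93, 10.47, 10.52, 10.27 and 9.97. Day 7 arrays thus stood apart from the naive ones, whereas 4 of 7 day 14 arrays did and 3 lay inside the naive range. A lack of overlap in this direction was seen for 0.19% of all probe sets. The log2 difference on day 7 was 0.46 ± 0.12 (95% interval 0.21 to 0.70; limma unadjusted p = 0.00103, adjusted p = 0.351), which is 1.37-fold. On day 14 it was 0.39 ± 0.12 (0.14 to 0.64; adjusted p = 0.115), and day 14 less day 7 was -0.07 (-0.29 to 0.16; adjusted p = 0.855). Naive replicate 4, the array with the highest 3-prime over 5-prime signal, was the lowest of all 19 for this probe set. Without it the differences were 0.38 on day 7 and 0.31 on day 14. With the 3-prime over 5-prime signal as a covariate they were 0.32 and 0.24, and within animals of prefix AJ 0.32 and 0.20.

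The dimmest Calca probe set ran from 5.75 to 5.98 in naive, 5.72 to 6.15 on day 7 and 5.92 to 6.15 on day 14. Of the day 14 arrays 4 of 7 lay above every naive array. The log2 difference from naive was 0.09 ± 0.08 (95% interval -0.07 to 0.25; limma adjusted p = 0.782) on day 7 and 0.18 ± 0.08 (0.02 to 0.34; adjusted p = 0.209) on day 14.

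Differences between the Calca probe sets were tested directly, and no change in them passed. The brightest minus the middle one was 2.68 ± 0.19 (SD, n = 5) in naive, 2.25 ± 0.17 (n = 7) on day 7 and 2.36 ± 0.22 (n = 7) on day 14. It was smaller on 7 of 7 day 7 arrays than on any naive array, and 0.711% of all such pairs had no overlap in either direction. The change in this difference was tested with limma over all 6609 such pairs of probe sets. It was -0.44 ± 0.11 (SE) on day 7 (unadjusted p = 0.00077, adjusted p = 0.234) and -0.32 ± 0.11 on day 14 (adjusted p = 0.124), and -0.15 on day 14 within animals of prefix AJ. The background of pairs that passed was 0.0151% on day 7 and 0.802% on day 14, and 11% and 20.1% had an unadjusted p under 0.05. The change in brightest minus dimmest was -0.07 on day 7 (adjusted p = 0.805) and -0.11 on day 14 (adjusted p = 0.547).

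From rat to rat, with group means removed, the brightest and the middle probe set gave Pearson r = 0.52 and Spearman rho = 0.52 over the 19 arrays, and 0.37 for r without the 2 arrays farthest from the median. Permutation p-values adjusted over the 29 relations computed were 0.0954 for r and 0.121 for rho. The brightest and the dimmest gave r = -0.38 (adjusted permutation p = 0.316) and the middle and the dimmest r = -0.13 (adjusted permutation p = 0.709). None of the 3 pairs of Calca probe sets therefore passed at 0.05.

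Calcb, the gene of beta-CGRP, came closest to passing on day 14. Naive arrays read 12.32, 12.17, 12.20, 12.09 and 12.10. Day 7 arrays read 12.45, 12.40, 12.12, 12.24, 12.30, 12.41 and 12.17, and day 14 arrays 12.45, 12.47, 12.32, 12.61, 12.52, 12.57 and 12.48. Of the day 14 arrays 6 of 7 lay above every naive array, and the remaining one matched the highest of them. Such a count, 6 or more, was reached by 3.95% of all probe sets. Day 7 overlapped the naive range, with 3 of 7 arrays above it. The day 14 difference was 0.31 ± 0.07 (95% interval 0.18 to 0.45; limma unadjusted p = 0.000119, adjusted p = 0.0598), which is 1.24-fold and ranked 62 of all probe sets by p. On day 7 it was 0.12 ± 0.07 (-0.02 to 0.26; adjusted p = 0.626), and day 14 less day 7 was 0.19 ± 0.06 (0.07 to 0.32; adjusted p = 0.317).

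The side of the threshold on which Calcb fell on day 14 turned on the setting. The adjusted p was 0.0311 without naive replicate 1, 0.0431 without day 14 replicate 3, 0.0347 with array weights, 0.0445 with limma's trended and robust prior, and 0.0462 with the muscle signal as a covariate. It was 0.699 with the animal code prefix as a block and 0.281 with the 3-prime over 5-prime signal as a covariate, where the differences were 0.30 and 0.30. Without the 3 arrays high in muscle transcripts the difference was 0.35. Within animals of prefix AJ alone, 2 per group for naive and day 14, the difference was 0.21.

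Tac1 varied between rats of 1 group more than most probe sets did. Naive arrays read 10.73, 10.32, 10.72, 9.62 and 10.33. Day 7 arrays read 10.95, 10.78, 10.31, 10.64, 10.62, 10.74 and 10.92, and day 14 arrays 10.39, 10.86, 10.13, 10.93, 10.54, 10.59 and 10.37. The 3 groups overlapped. The within-group SD was 0.312, larger than that of 95.27% of the probe sets, whose median was 0.139. The difference from naive was 0.37 ± 0.17 (95% interval 0.02 to 0.71; limma adjusted p = 0.548) on day 7 and 0.20 ± 0.17 (-0.15 to 0.55; adjusted p = 0.507) on day 14. Without naive replicate 4 these values were 0.19 and 0.02, and among animals of prefix AJ they were -0.03 and -0.19.

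Tac1 and the middle Calca probe set went up and down together across rats of the same group. With group means removed, Pearson r was 0.82 (adjusted permutation p = 0.00087) and Spearman rho 0.84 (adjusted permutation p = 0.00261) over 19 arrays. Without the 2 arrays farthest from the median r was 0.75, and it was 0.72 within day 7 and 0.84 within day 14 (7 arrays each). Calcb and Tac1 gave r = 0.64 (adjusted permutation p = 0.039) and rho = 0.68 (adjusted permutation p = 0.0303), and r = 0.50 without 2 arrays. These were the only 2 of the 29 relations that passed at 0.05. The other Calca probe sets did not pass with Tac1. The brightest gave r = 0.48 (adjusted permutation p = 0.0954; 0.36 without 2 arrays) and the dimmest r = -0.08 (adjusted permutation p = 0.751; -0.53 within day 14). Within the naive group both AJ rats read higher than all 3 AK rats for Tac1, the middle Calca probe set, Calcb and Kit. With the means of group and code prefix removed, an alternative chosen after the data were seen, the middle Calca probe set and Tac1 gave r = 0.82 (adjusted permutation p = 0.0264) and rho = 0.82 (adjusted permutation p = 0.0774). Calcb and Tac1 then gave r = 0.59 (adjusted permutation p = 0.261), which no longer passed. RNA integrity is shared by the probe sets of an array. Against the 3-prime over 5-prime signal, r was -0.49 for the middle Calca probe set (adjusted permutation p = 0.0954) and -0.48 for Tac1 (adjusted permutation p = 0.252). Without the 2 arrays farthest from the median these were -0.28 and -0.03. Its part in the relation between the genes was not tested.

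**Figure D2:**
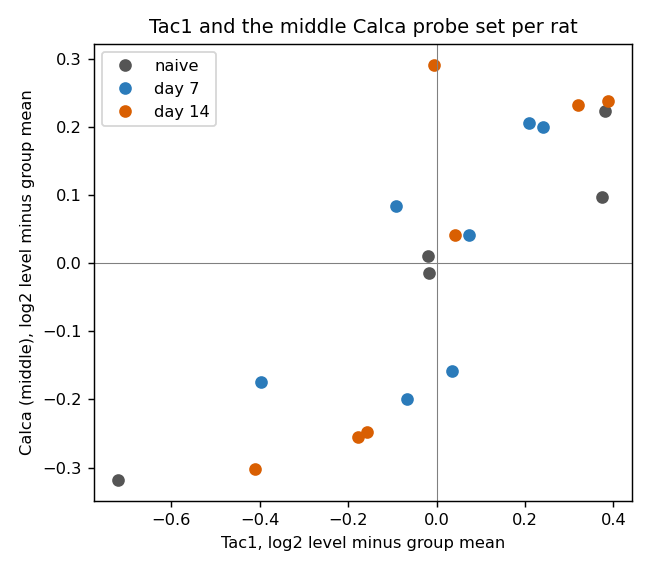
Each point is 1 rat, placed by its Tac1 log2 signal (horizontal axis) and that of the middle Calca probe set (vertical axis), both less the mean of the rat's group. Rats high in Tac1 tend to be high in this probe set (r = 0.82 over 19 arrays), and the lowest point is naive replicate 4.

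The genes most like each member were sought among brighter probe sets, by Pearson r of group-centred values over the 19 arrays, as a description. For Tac1 they were Pfdn4 (r = 0.88), Npy1r (0.87), Srp9 (0.86), Psmd14 (0.86) and Trappc2b (0.84). Npy1r, a receptor for neuropeptide Y, also had r = 0.83 with the middle Calca probe set. For the brightest Calca probe set they were Gmps (0.84), Ssr1, Fxr1, Rufy3 and Rrn3 (0.78). For Calcb they were Ramac (0.79), Mgat4a, Mfsd1, Hint3 and Ddit4l (0.73), and for Kit they were Cnksr1 (0.80), Kcnj6 (0.80), Mthfsd, Klhl22 and Ggta1 (0.76). The points share arrays, and with them amplification and RNA integrity.

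Kit was read near the floor of the arrays. Naive arrays read 4.74, 4.49, 4.67, 4.52 and 4.54. Day 7 arrays read 4.998, 4.71, 4.62, 4.65, 4.55, 4.93 and 4.74, and day 14 arrays 4.78, 4.85, 4.80, 4.84, 4.74, 5.11 and 4.95. On day 14, 6 of 7 arrays lay above every naive array and the lowest fell just under the highest naive one. A count of 6 or more on day 14 was reached by 3.95% of all probe sets. Day 7 overlapped, with 2 of 7 arrays above. The day 14 difference was 0.28 ± 0.08 (95% interval 0.11 to 0.44; limma unadjusted p = 0.0025, adjusted p = 0.102), which at this signal gives no reliable fold change of the transcript. On day 7 it was 0.15 ± 0.08 (-0.02 to 0.32; adjusted p = 0.621), and day 14 less day 7 was 0.13 (-0.03 to 0.28; adjusted p = 0.520). Within animals of prefix AJ the differences of Kit were 0.12 on day 14 and 0.0065 on day 7. Dim probe sets as a class were higher on day 14. Of the 6292 with a mean under 5, 75% had a positive day 14 difference and 13.5% were higher with an unadjusted p under 0.05, against 56.4% and 10.9% of all.

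Other cells that carry Kit were examined beside it. The mean of 8 mast cell markers ran from 5.26 to 5.50 in naive, 5.16 to 5.58 on day 7 and 5.24 to 5.46 on day 14. No mast cell marker had a mean over the 6.04 of Hdc, which makes histamine, and all were below the median probe set. Of 5 melanocyte markers, Tyrp1 (mean 12.12) and Pmel (8.52) were above the median probe set of 6.72. Dct (6.71), Tyr (5.47) and Mlana (4.95) were below it. The mean of the 5 ran from 7.37 to 7.55 in naive, 7.41 to 7.73 on day 7 and 7.34 to 8.06 on day 14. Its highest value belonged to day 14 replicate 6, the array highest in Kit, where Dct, an enzyme of melanin synthesis, read 8.42 against 6.06 to 6.96 elsewhere (Dct was picked after its values were seen). Without that array the day 14 difference of Kit was 0.24. Over the 19 arrays Kit gave r = 0.51 with the melanocyte mean (adjusted permutation p = 0.0954; rho = 0.24; 0.29 without 2 arrays) and r = 0.20 with the mast cell mean (adjusted permutation p = 0.672).

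**Figure D3:**
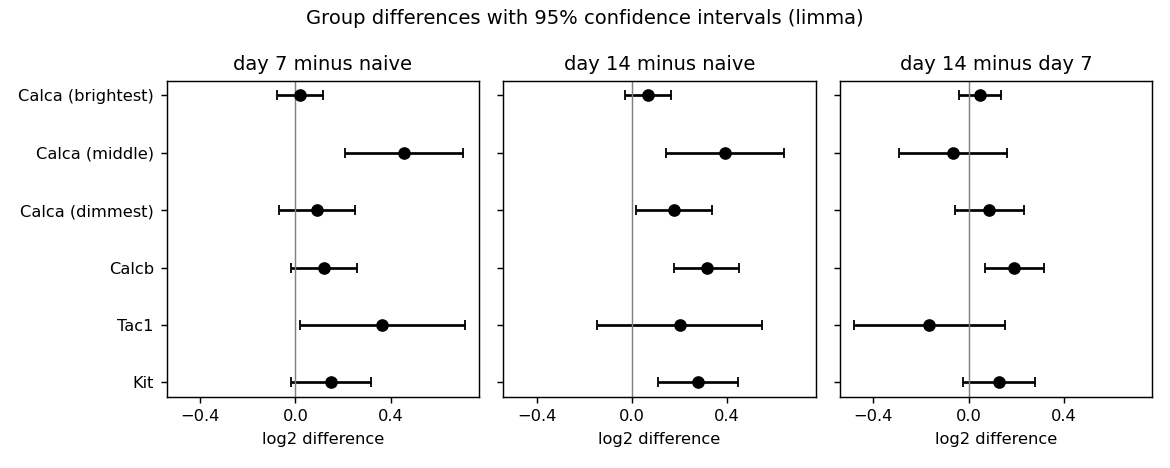
Log2 difference between group means (horizontal axis) of the 6 probe sets for day 7 less naive, day 14 less naive and day 14 less day 7. Points are limma estimates and bars their 95% confidence intervals, unadjusted for the number of probe sets. Intervals that clear 0 on day 14 are those of Calcb, Kit and the middle and dimmest Calca probe sets, of which none passed after adjustment.

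Most genes listed for the receptors of the peptides had positive differences on day 14, and none passed. The list held 9 genes of receptors of CGRP and the tachykinins and of their partners. The partners Ramp2, Ramp3 and Crcp are not themselves receptors of these peptides. Of the 9, 8 had a positive difference, with a median of 0.15 against 0.003 over all genes, of which 50.74% were positive. On day 7 it was 7 of 9 with a median of 0.10. Some of these receptors are dim. Tacr2 (4.25 on day 14) and Tacr3 (4.95) belong to the probe sets with a mean under 5. That class was higher on day 14, as given for Kit. Calcr (5.29) and Calcrl (5.58), by the probe sets used here, have means above 5 and lie outside that class. Both are still below the median of 6.72 over all probe sets. Among markers of other cells the direction on day 14 varied. Skeletal muscle genes were positive in 0 of 12 (median -0.51), nonpeptidergic nociceptor markers in 2 of 6 (median -0.07) and mast cell markers in 5 of 8 (median 0.08). Macrophage markers were positive in 7 of 8 (median 0.09), fibroblast and vessel markers in 6 of 7 (median 0.15) and satellite glia markers in 2 of 3 (median 0.12), and 0 passed. The mean of the macrophage markers ran from 7.06 to 7.48 in naive, 6.57 to 7.80 on day 7 and 6.99 to 7.75 on day 14. Their part in the receptor values was not tested. Calcrl, the core of the CGRP receptor, had 0.12 by its dimmer probe set, whose mean of 4.73 is under 5. By the brighter one it was above every naive array on 7 of 7 day 14 arrays, with a difference of 0.23 ± 0.07 (limma adjusted p = 0.0977). Such a lack of overlap, higher on day 14, was found for 1.07% of all probe sets. Ramp1, which makes Calcrl a CGRP receptor, had 0.47 ± 0.18 (limma adjusted p = 0.166). Of its day 14 arrays 6 of 7 lay above naive, a count that 3.95% of all probe sets reached or exceeded. The arrays highest in Ramp1 were day 7 replicate 2 (8.05) and day 14 replicate 3 (8.11). Both were the highest of their groups in the macrophage mean (7.80 and 7.75) and also in Atf3 (11.15 and 11.63), a gene induced when sensory axons are cut. The part of either in Ramp1 was not tested. Ramp2, the partner of Calcrl for adrenomedullin, had 0.11 (limma adjusted p = 0.540). Tacr1, the substance P receptor, had 0.04, and 0.10 by its other probe set.

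Genes around Kit also had mostly positive differences. Of 12 genes, the ligand and signalling partners, 10 were positive on day 14 with a median of 0.12, and 8 on day 7 with a median of 0.05, and 0 passed. Kitlg, the ligand, had a day 14 difference of 0.28 ± 0.10 (limma adjusted p = 0.138; 5 of 7 arrays above every naive one), with 0.31, 0.01 and 0.06 by its other, dimmer probe sets. The adaptors Ptpn11 and Grb2 had 0.04 and -0.01. Other family peptides, of which Adm, Iapp and Tac3 were measured out of 5 listed, had 3 positive day 14 differences between 0.04 and 0.12.

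Most genes for making and storing peptides had negative differences. Of 11 measured genes of prohormone processing and dense core vesicles, 8 were negative on day 7 and 8 on day 14. These were not all the same genes, since Cpe had -0.03 on day 7 and 0.01 on day 14. The list medians were -0.04 and -0.09, and 0 passed. Scg5, the chaperone of prohormone convertase PC2, was below every naive array on 7 of 7 day 14 arrays, with -0.23 ± 0.05 (limma adjusted p = 0.0744). A lack of overlap in this direction was found for 0.751% of all probe sets. Cpe, which trims the peptide ends, had 0.01 and Pam, which amidates CGRP and substance P, had -0.02.

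Other genes of peptidergic and small-diameter nociceptors, a list not confined to peptidergic neurons, had differences on both sides of 0. Of the 8 genes examined, 5 were positive on day 14 with a median of 0.002. Trpv1, the capsaicin receptor, lay below every naive array on 7 of 7 day 14 arrays with -0.18 ± 0.05 (limma adjusted p = 0.107), and its other probe sets gave -0.23 and 0.08. The same 0.751% of all probe sets is the background of that count. Adcyap1, the gene of the peptide PACAP, had 0.0001, and 0.19 by its other probe set. The 9 markers of all neurons had a median of 0.03, with 8 positive.

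Genes known to be induced when sensory axons are cut were positive in 10 of 10 on both days, with medians of 0.92 and 1.45, and 0 passed. The operated rats were divided in Atf3. Atf3 ran from 7.94 to 8.44 in naive, and day 7 replicates 3, 4 and 5 (7.95, 7.28 and 7.88) and day 14 replicates 2 and 7 (8.33 and 8.12) were no higher than that, while the other 9 operated rats read 9.18 to 11.63. Npy did not divide them in the same way. It read 8.99 and 9.71 on day 7 replicates 4 and 5, against a naive maximum of 7.66. Gal read 9.12, 9.11 and 9.32 on day 7 replicates 3, 4 and 5, within its naive range. The mean of the 10 genes ran from 7.14 to 7.44 in naive, 7.42 to 9.89 on day 7 and 7.48 to 10.23 on day 14. On day 14 Atf3 had 1.62 (limma adjusted p = 0.166), and the peptides Npy, Gal and Vip had 2.98 (adjusted p = 0.0807), 1.46 (0.0924) and 2.89 (0.108). Within day 14, replicate 3 was the highest array for these 4 genes, with Atf3 at 11.63, an array picked after these values were seen. The same array was the lowest of day 14 for Tac1 (10.13), Calcb (12.32) and the 2 brighter Calca probe sets (9.93 and 12.48). For the dimmest Calca probe set it was the highest of day 14, at 6.149, with replicate 7 next at 6.146. The day 14 array with the next highest Atf3, replicate 5 (11.04), did not share the low peptide signals. It had Calcb at 12.52, the brightest Calca probe set at 12.64 and the middle one at 10.52, the highest of day 14. Its Tac1 signal of 10.54 was close to the day 14 mean. On day 7 the array highest in Atf3, replicate 2 (11.15), had Calcb at 12.40 and Tac1 at 10.78, both above their group means. Without day 14 replicate 3 the day 14 difference of Calcb was 0.34. The part of these genes in the members' values was not tested. Over all 16 lists examined, 0 genes passed in any of the 3 comparisons.

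**Figure D4:**
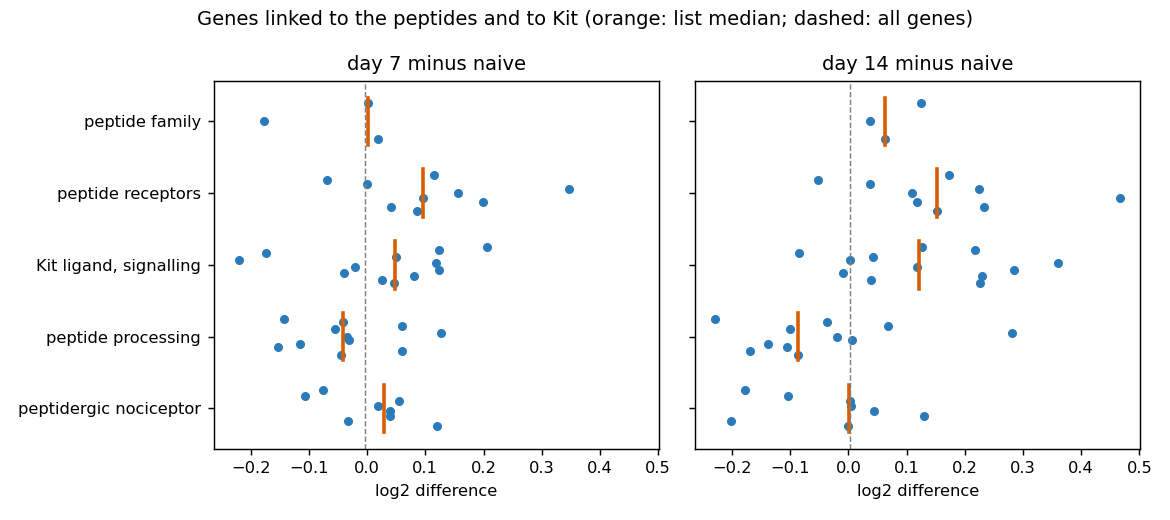
Log2 difference from naive (horizontal axis) for the listed peptide family, receptor, Kit ligand and signalling, peptide processing and other peptidergic nociceptor genes, on day 7 (left) and day 14 (right). Points are genes, orange bars list medians and the dashed line the median of all genes. No point passed the adjusted test. On day 14 the receptor and partner genes have 8 of 9 and the Kit pathway genes 10 of 12 points right of 0. For the processing genes it is 3 of 11.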

How the data were processed

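RNA of 19 T11 ganglia was hybridised to 19 single-colour arrays. The authors deposited RMA values on the log2 scale, background-corrected, quantile-normalized and summarised per probe set as RMA does, and RMA and limma are named per the submitters' processing notes without versions. The submitters had taken out 1 more naive array, not analysed here. Of 31099 probe sets, 57 controls were left out. Genes were named from the platform annotation, with symbols updated by gene identifier for 20758 probe sets, by accession for 2 and kept for 66. Another 436 probe sets had several symbols and 9780 none. No member symbol changed, and no 2 arrays held identical values.

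All 3 groups were fitted in 1 model with limma 3.58.1 in R 4.3.3 (lmFit and eBayes, Benjamini-Hochberg within each comparison, threshold 0.05), which was tested on simulated data. Differences between probe sets of a gene were fitted the same way. Correlations used 100000 permutations within groups, two-sided, in Python 3.11.15 with scipy 1.17.1. Depth has no meaning for arrays, and their number limits the precision. Each array is a separate rat, so the spread includes that between animals.

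Alternatives covered dim probe sets, normalization, moderation, array weights, samples in the fit, blocks, covariates, the threshold and leaving out each array. The fit with animals of prefix AJ alone and the correlations within code prefix were added after the data had been seen. The members and the 16 gene lists (138 genes, of which 124 were measured by a probe set of 1 symbol) were chosen with earlier results of these data known. List values use the probe set with the highest mean per gene. Genes named were the members, up to 4 of the brightest genes per list, Atf3, Npy, Gal, Vip, Trpv1, Adcyap1, Calcrl, Ramp1, Tacr1 and Kitlg, and the 5 genes most like each member.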

Additional observations from a re-analysis of the deposited data

Results flagged for a closer look

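Day 14 replicate 3, the array highest in Atf3, stood far below the other 6 day 14 arrays for a pair of sodium channel genes of nociceptors. Scn10a read 12.18 there and the next lowest array 12.43. Scn11a read 12.21 and the next lowest array 12.59. Each gap exceeded Dixon's 95% critical value for 7 samples. Among 78 groups of values examined 2 were singled out in this way, where chance gives about 3.9. No value of Calca, Calcb, Tac1 or Kit was among them.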

How the results depend on the processing

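By adjusted limma p, Calcb on day 14 was the only member result that passed under any alternative run, as given above, and its difference ran from 0.21 to 0.35. The cause of each change below was not tested.

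On day 14 against naive, 43 probe sets passed; 28 did after quantile normalization again, 76 with array weights, 13 with only the 2 groups, 0 with the code prefix as a block, 0 with the 3-prime over 5-prime covariate, 12 without the 3 arrays high in muscle, 134 with the muscle covariate, 729 at a threshold of 0.10 and 0 within prefix AJ. Leaving out 1 array gave 5 to 401: 401 without naive replicate 1, 5 without naive replicate 3, 15 without naive replicate 5, 28 without naive replicate 2, and 65, 26, 6 and 16 without day 14 replicates 1, 2, 5 and 6. On day 7 the count was 2 with the 3-prime over 5-prime covariate and 0 to 2 without 1 array. Between day 14 and day 7 it was 1 with the prefix block, 1 within prefix AJ and 0 to 3 without 1 array.

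Of pairs of probe sets, 53 passed on day 14; 0 did without dim probe sets, 3 after quantile normalization, 20 with array weights, 4 with only the 2 groups, 0 with the prefix block, 0 with the 3-prime over 5-prime covariate, 154 without the muscle arrays, 167 with the muscle covariate, 377 at 0.10, 0 within prefix AJ and 0 to 223 without 1 array. On day 7 1 passed, and 0 did without dim probe sets, after quantile normalization, with trend and robust, with only the 2 groups, with the prefix block and without the muscle arrays, 2 with array weights, 2 at 0.10 and 0 to 2 without 1 array. Between the days it was 4 with array weights, 1 without the muscle arrays, 1 within prefix AJ and 0 to 2 without 1 array.

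Same-numbered arrays of different groups are of different rats. Over 17 such pairs r of the group-centred values ran from -0.26 to 0.33, with 3 above 0.1. Differently numbered arrays were not compared, so these values do not show whether the numbers pair anything. With the replicate block 9 probe sets passed on day 14, and 0 pairs of probe sets on day 14 and 0 on day 7. Calcb had 0.31 (limma adjusted p = 0.143). Adcyap1 had -0.026 and Cpe -0.011 with this block.

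Differences near 0 changed sign. Within prefix AJ the day 7 values were -0.0028 (brightest Calca), -0.0057 (Calcb), -0.034 (Tac1) and -0.019 (Ramp1), and the day 14 values -0.19 (Tac1), -0.19 (Tacr1), 0.073 (Pam), -0.025 (Ptpn11) and -0.00069 (Adcyap1). With the prefix block day 14 gave Pam 0.044, Ptpn11 -0.032 and Tacr1 -0.040. With the 3-prime over 5-prime covariate it gave Tac1 -0.0069, Cpe -0.019 and Grb2 0.0017, and Tacr1 0.017 on day 7. Adcyap1 on day 14 was -0.0035 after median centring and -0.0080 with array weights, and Cpe -0.0058 after quantile normalization. Tacr1 on day 7 was 0.0060 after quantile normalization, 0.028 with array weights and 0.084 without the muscle arrays. Without 1 array the range was -0.0018 to 0.034 for the brightest Calca probe set on day 7 and -0.087 to 0.0028 for brightest minus dimmest between the days. It was -0.034 to 0.029 for Adcyap1, -0.0070 to 0.019 for Cpe, -0.030 to 0.0086 for Grb2, -0.041 to 0.0051 for Pam and -0.0060 to 0.099 for Tacr1 on day 14, and -0.020 to 0.22 for Ramp1 and -0.048 to 0.061 for Tacr1 on day 7.

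Of the 24 results on members and Calca pairs under all alternatives, 770 values kept direction and side, 12 newly passed (6 by the unadjusted exact permutation p, the rest Calcb on day 14) and 7 changed sign. Of the 30 on other named genes, 914 kept both, 4 newly passed and 39 changed sign. With the mean of all Calca probe sets the differences were 0.19 on day 7 and 0.21 on day 14. Kit and the dimmest Calca probe set are dim. Their day 14 intervals cleared 0 (0.11 to 0.44 and 0.02 to 0.34) without passing the adjusted test. Not passing therefore does not show that they were unchanged. Their day 14 SEs were 0.08 each, against a median of 0.08 over all probe sets. Tac1 (0.17) and the middle Calca probe set (0.12) had larger SEs.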
